A study of Mus musculus with 6 samples.

Results

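The retinoblastoma gene Rb1 and its relatives Rbl1 (p107) and Rbl2 (p130) were followed probe set by probe set in erythroid precursors of Rb-null and control mice. A probe set is a group of short probes on an Affymetrix array that reads one transcript or group of transcripts. All probe sets annotated to the 3 genes by symbol or synonym were taken, 8 of the 45101 in the value table: 2 for Rb1, 4 for Rbl1 and 2 for Rbl2. The study asks how Rb links leaving the cell cycle with the making of mitochondria as red cells form. RNA came from bone marrow cells that were sorted by 2 surface markers of nucleated red cell precursors, Ter-119 and the transferrin receptor CD71. The 3 Rb-null arrays came from mice of genotype EpoR-GFPcre/+; Rb fl/fl, and the 3 control arrays from mice of genotype EpoR-GFPcre/+; Rb fl/+. Both groups therefore carried a Cre recombinase at 1 copy of the erythropoietin receptor locus, which is active in the red cell lineage, and the controls carried 1 floxed Rb1 allele themselves. The labels give no age and do not say that each array had its own mouse; p-values thus rest on a spread between arrays that could be technical.

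Rb1, Rbl1 and Rbl2 encode the pocket proteins, named after the fold that holds partner proteins. In resting cells they bind E2F transcription factors with their DP partners and repress the genes of DNA replication; cyclin-dependent kinases phosphorylate them at the start of S phase and release the E2Fs. Rb1 binds mainly the activating E2Fs, while Rbl1 and Rbl2 bind mainly E2f4 and E2f5 and join the MuvB proteins in the DREAM repressor of cell cycle genes. Rbl2 is typical of resting cells, whereas Rbl1 is itself an E2F target and is typical of dividing cells. In mice, loss of Rb1 disturbs the last steps of red cell formation.

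The values are deposited intensities on a linear scale, with array medians between 23.3 and 31.2. Of the markers of the labelled cells, Tfrc, Alas2, Gata1, Klf1, Epor, Slc4a1, Ermap and Rhag were past the filter on dim probe sets, Hba-a1 was below it, and Hbb-b1 had no probe set of its own. The summed signal of the 9 erythroid markers measured was 38977 to 46943 in Rb-null and 38759 to 41582 in control samples. Markers of granulocytes, which the sort should remove, were bright as well: all 10 were past the filter, none was at 0, and their summed signal was 26307 to 51863 in Rb-null and 35385 to 51641 in control samples. Each of the 10 had a lower mean log2 value in Rb-null samples, 5 of them in each of the 3 pairs of equal replicate number. Of the B cell markers, 7 of 8 were measured, all past the filter and none at 0, with a summed signal of 305 to 477 in Rb-null and 510 to 852 in control samples. All 8 macrophage markers were past the filter and none was at 0, with sums of 1270 to 1711 in Rb-null and 1544 to 2914 in control samples. The part of these cells in the results on Rb1 and its relatives was not tested. In whole sorted samples, fewer cells of a type and less RNA per cell cannot be told apart. Both arrays numbered 3 stood apart, with a mean of 542 (Rb-null) and 1231 (control) over the 3 probe sets for 18S ribosomal RNA, against 47.1 and 63.7 on the other Rb-null and 32.6 and 66.2 on the other control arrays.

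Rb1 signal was higher in Rb-null samples on the bright probe set, in every pair, although limma called it only with the replicate block, a variance trend and robust moderation together. No probe set of Rbl1 or Rbl2 passed limma's test in any fit. The bright Rb1 probe set was 1.68 times as high in Rb-null as in control samples (95% confidence interval 1.02 to 2.77, n = 3 each). The brightest probe sets of Rbl1 and Rbl2 had ratios of 0.960 (0.410 to 2.25) and 0.904 (0.552 to 1.48). Over all 27019 probe sets past the filter, limma called 0 at adjusted p under 0.05, or 0% (lowest adjusted p = 0.265), and 1119 had an unadjusted p under 0.05. With the replicate number as a block limma again called 0 (lowest adjusted p = 0.0999), with 4458 at unadjusted p under 0.05.

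Rb1, on chromosome 14, encodes the pocket protein whose loss defines the Rb-null group. Probe set 1417850_at read 4045, 3670 and 2897 on Rb-null arrays 1, 2 and 3, and 2760, 2152 and 1379 on control arrays 1, 2 and 3. The lowest Rb-null value thus lay just above the highest control value, and the groups did not overlap. After normalization too they did not, as was the case for 9.64% of the probe sets tested, or 5.73% counting only those with Rb-null higher. The means were 3537 ± 585 in Rb-null and 2097 ± 692 in control samples (SD, n = 3 each). After quantile normalization the log2 differences between Rb-null and control were 0.57, 0.69 and 0.99 in pairs 1, 2 and 3. A higher Rb-null value in each of the 3 pairs was seen in 20.3% of probe sets tested.

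The limma fit gave the bright Rb1 probe set a log2 fold change of 0.75 (SE 0.32), with an unadjusted p of 0.0445 and an adjusted p of 1.00 over all probe sets. Arrays of equal replicate number resemble each other, and with that number as a block the error was smaller (SE 0.17, limma adjusted p = 0.135). With the block, a variance trend and robust moderation together, Rb1 passed limma's test (SE 0.11, adjusted p = 0.0249), as did 3.47% of the probe sets, with 605 higher in Rb-null, or 2.24% of those tested, and 333 lower. Without both arrays numbered 3 that fit called Rb1 with a log2 fold change of 0.61 (limma adjusted p = 0.00566), beside 1584 calls in all. It reuses the same arrays with fewer of them, so it is not separate support. So few arrays with a block leave little spread to estimate per probe set, and the p-value rests largely on spread pooled over probe sets. Trend and robust moderation was not run on simulated data. The log2 fold change ran from 0.53, without control replicate 3, to 0.98, without control replicate 1.

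The second Rb1 probe set, 1444400_at, was dim. It read 15.2, 24.8 and 0.855 on Rb-null arrays 1, 2 and 3, and 11.5, 11.7 and 7.07 on control arrays 1, 2 and 3. Its mean of log2 4.74 lay below the filter of 5.12 (an intensity of 18.9), and it was higher in Rb-null in pairs 1 and 2 and lower in pair 3. Fitted without the filter it had a log2 difference of 0.08 (SE 0.32, limma adjusted p = 1.00). The labels and annotation do not place these probe sets relative to the floxed part of Rb1. Their signal therefore does not check the genotype labels, and each direction here rests on those labels.

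**Figure D1:**
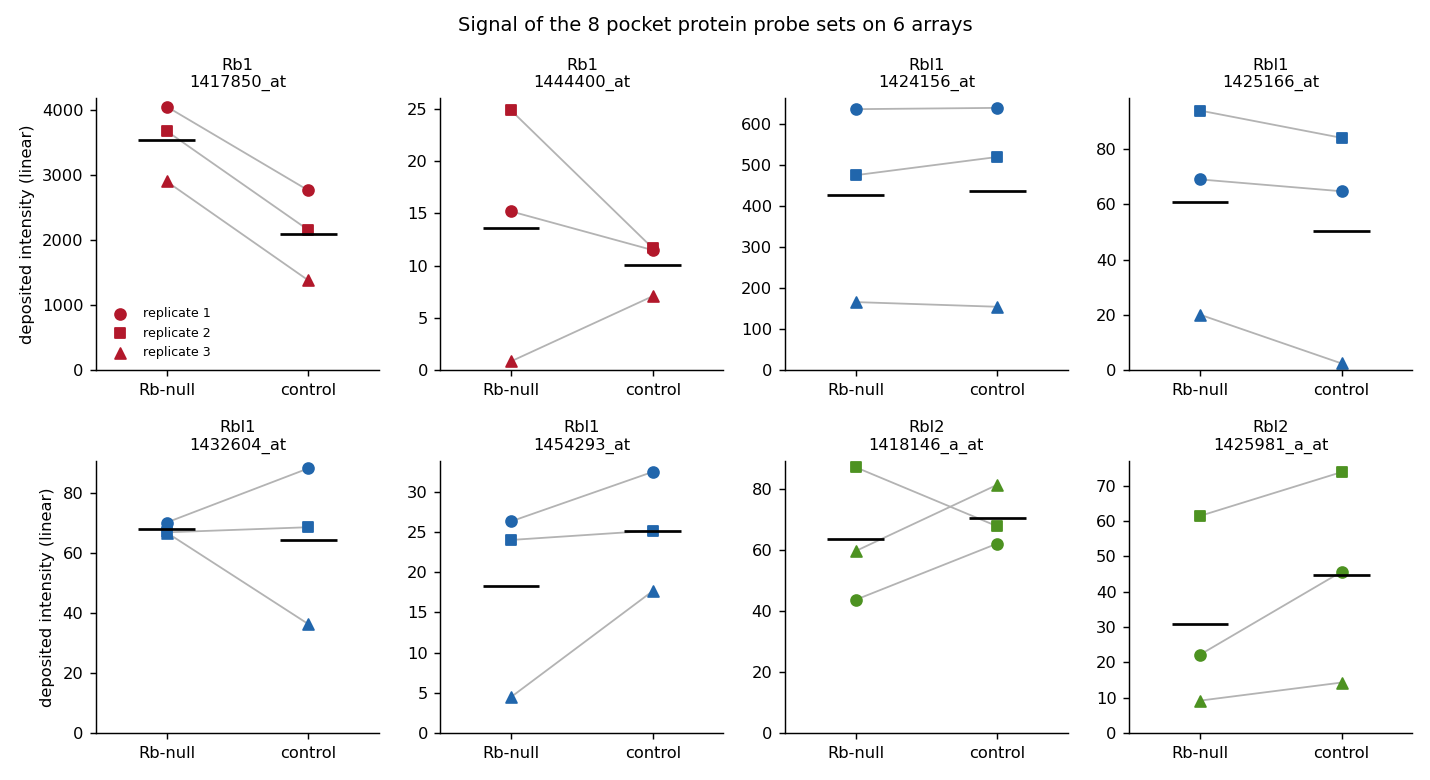
Deposited intensity (linear, axes from 0) of each of the 8 probe sets, with Rb-null arrays at the left and control arrays at the right of each panel. Symbols mark replicate numbers, grey lines join arrays of equal number and black bars are group means. The bright Rb1 probe set is higher in Rb-null in each pair, and the 3 replicate symbols of Rbl1 1424156_at lie far apart in both groups.

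Rbl1 encodes p107, the pocket protein of dividing cells. Its promoter is shown because Rbl1 is a known E2F target, and the letters of E2F sites can be looked for in it. RefSeq's table for GRCm38.p6 held promoters, of 250 bases before and 50 after the annotated start, for 2 of the 3 genes, all but Rb1. The stretches were searched on both strands for the E2F words TTTCGCGC, TTTCCCGC, TTTGGCGC and TTTGCCGC and for TTTGAA, the cell cycle genes homology region (CHR) read by the DREAM subunit Lin54. Capitals mark these words, none of which overlapped another.
Rbl1 promoter, chr2:157204485-157204784, minus strand: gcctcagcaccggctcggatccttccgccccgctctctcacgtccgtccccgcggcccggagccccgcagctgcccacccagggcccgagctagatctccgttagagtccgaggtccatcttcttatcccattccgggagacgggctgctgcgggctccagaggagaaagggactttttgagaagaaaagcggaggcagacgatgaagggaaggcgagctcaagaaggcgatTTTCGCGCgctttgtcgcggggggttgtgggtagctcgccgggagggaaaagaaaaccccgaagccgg
Rbl2 promoter, chr8:91069807-91070106, plus strand: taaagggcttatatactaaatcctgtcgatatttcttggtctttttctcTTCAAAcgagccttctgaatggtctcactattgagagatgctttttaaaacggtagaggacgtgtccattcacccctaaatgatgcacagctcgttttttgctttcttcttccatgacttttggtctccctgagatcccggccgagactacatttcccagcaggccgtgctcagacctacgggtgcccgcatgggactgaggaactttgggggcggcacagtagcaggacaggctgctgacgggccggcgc
The Rbl1 stretch held 1 E2F word, TTTCGCGC, from -18 to -11 relative to the start, and the Rbl2 stretch held none. An E2F word was present in 2.26% of the 32851 promoters of this length. The Rbl2 stretch held 1 CHR word on the opposite strand, from -201 to -196, as did 17.9% of promoters on either strand. G and C made up 64% of the Rbl1 and 50.7% of the Rbl2 stretch.

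The brightest Rbl1 probe set, 1424156_at, read 636, 475 and 166 on Rb-null arrays 1, 2 and 3, and 639, 520 and 155 on control arrays 1, 2 and 3. The groups overlapped almost fully, and within a pair the readings lay close together. The pair differences in log2 were -0.12, -0.15 and 0.09. The log2 fold change was -0.06 (SE 0.54, limma adjusted p = 1.00), with an interval of -1.28 to 1.17. With the replicate block the interval narrowed to -0.44 to 0.32 (SE 0.16, limma adjusted p = 0.870).

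The other 3 Rbl1 probe sets were weaker and did not share a direction. Probe set 1425166_at read 69.1, 94.0 and 20.1 on Rb-null arrays and 64.8, 84.1 and 2.44 on control arrays, each in the order 1, 2 and 3. It was higher in Rb-null in each pair, by 0.15, 0.12 and 0.98 in log2, so that most of its log2 fold change of 0.42 (SE 0.61, limma adjusted p = 1.00) came from pair 3, where the control array was close to 0. Without control replicate 3 the value was -0.28.

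Probe set 1432604_at of Rbl1 read 70.0, 66.8 and 66.7 on Rb-null arrays 1, 2 and 3, and 88.1, 68.5 and 36.3 on control arrays 1, 2 and 3. The Rb-null values lay within the control range, and the log2 fold change was 0.14 (SE 0.29, limma adjusted p = 1.00). Probe set 1454293_at, with a mean of log2 5.18 just past the filter, read 26.3, 24.0 and 4.47 on Rb-null and 32.5, 25.2 and 17.6 on control arrays. It was lower in Rb-null in each pair, as were 22% of probe sets tested, with a log2 fold change of -0.32 (SE 0.32, limma adjusted p = 1.00), and the groups overlapped.

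Rbl2 encodes p130, the pocket protein of resting cells. Probe set 1418146_a_at read 43.6, 87.0 and 59.6 on Rb-null arrays 1, 2 and 3, and 62.0, 67.7 and 81.3 on control arrays 1, 2 and 3. Rb-null was higher in pair 2 and lower in pairs 1 and 3, the groups overlapped, and the log2 fold change was -0.15 (SE 0.31, limma adjusted p = 1.00). Probe set 1425981_a_at read 22.2, 61.4 and 9.14 on Rb-null arrays, against 45.6, 73.8 and 14.3 on control arrays. It was lower in Rb-null in each pair, by log2 differences of -0.63, -0.22 and -0.31, though the spread between replicate numbers was wider than that. Its log2 fold change was -0.39 (SE 0.46, limma adjusted p = 1.00), and with the replicate block it did not pass either (SE 0.17, limma adjusted p = 0.318).

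**Figure D2:**
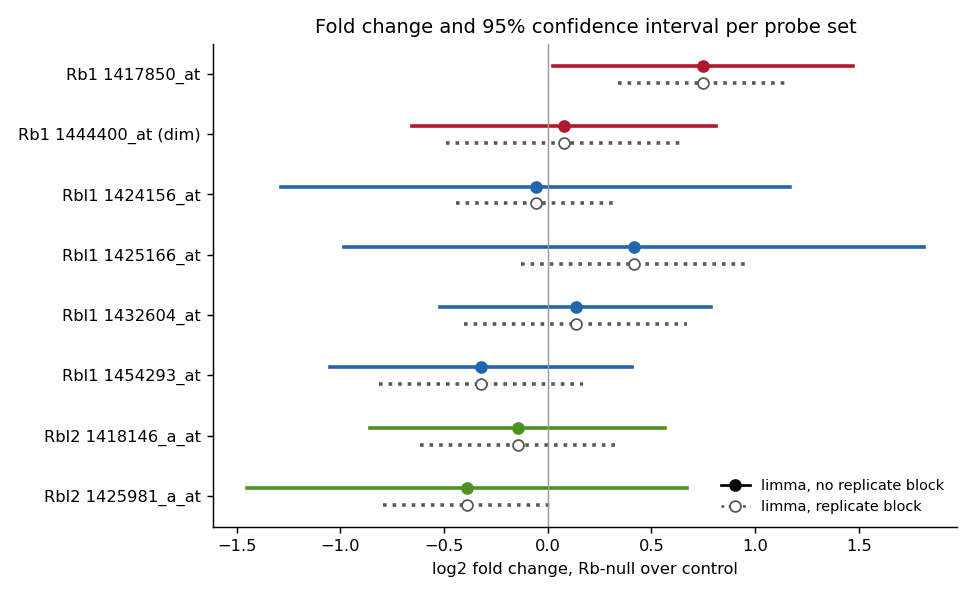
Log2 fold change of Rb-null over control (horizontal axis) for each probe set, with 95% confidence intervals from limma without (solid, coloured) and with (dotted, grey) the replicate block. The solid interval of the bright Rb1 probe set runs from 0.02 to 1.47, and those of the other 7 probe sets cross 0 in both fits.

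Whether the 3 genes moved differently was tested on the log2 difference between the brightest probe sets of a pair of genes on each array, with 3 pairs of genes compared. The Rb-null minus control difference was greater for Rb1 than for Rbl1 by 0.81 in log2 (SE 0.45 over arrays), and greater in each of the 3 pairs of arrays, by 0.69, 0.84 and 0.90 (SE 0.062 over pairs). With 1 array left out it ran from 0.47, without Rb-null replicate 3, to 1.10, without control replicate 3. It was greater for Rb1 than for Rbl2 by 0.89 (SE 0.57 over arrays), again in each pair, by 0.89, 0.43 and 1.36 (SE 0.27 over pairs), and ran from 0.50, without control replicate 3, to 1.26, without control replicate 1. An exact 2-sided permutation test over the 6 arrays, which ignores the pairs, gave p = 0.3 for both (adjusted p = 0.45). An exact 2-sided sign-flip permutation test over the 3 pairs gave p = 0.25 for both (adjusted p = 0.375). Neither test could reach 0.05 with this number of arrays, since the smallest p is 0.1 over arrays and 0.25 over pairs. Rbl1 and Rbl2 differed by 0.09 (SE 0.94, exact permutation p = 0.9), and this difference changed sign between pairs.

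Differences between replicate numbers were larger in size than those between genotypes for all 6 probe sets of Rbl1 and Rbl2. Relative to the other 4 arrays, the 2 arrays numbered 3 were lower by a log2 difference of -1.41 on Rbl1 1424156_at, -1.66 on Rbl1 1425166_at and -1.01 on Rbl2 1425981_a_at, after quantile normalization. Of all probe sets tested, 10.3% were lower there by more than 1, and the median difference was -0.02. The bright Rb1 probe set was lower by -0.46, and Rbl1 1432604_at by -0.18. Rbl2 1418146_a_at went the other way, with 0.38. The signal for 18S ribosomal RNA was raised on the same 2 arrays, and its part in these differences was not tested.

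**Figure D3:**
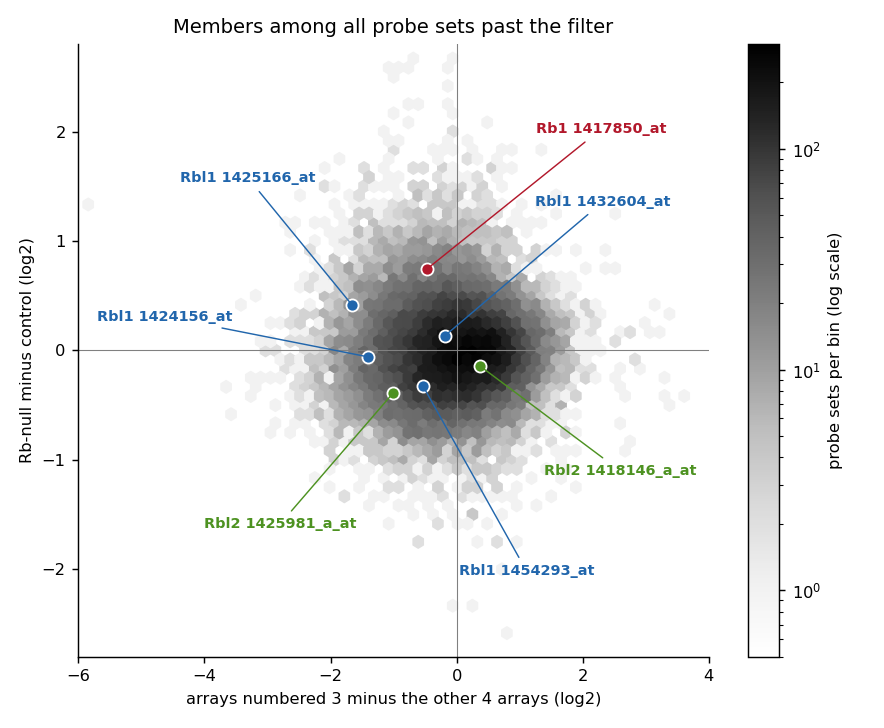
Each of the 27019 probe sets past the filter by its difference between the 2 arrays numbered 3 and the other 4 (horizontal, log2) and between Rb-null and control (vertical, log2). Grey shading counts probe sets per bin on a log scale and coloured points are the 7 members past the filter. Rb1 1417850_at stands high at 0.75 on the vertical axis, while Rbl1 1424156_at and 1425166_at lie to the left at -1.41 and -1.66.

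Genes whose pattern over the 6 arrays was most like that of each bright probe set were sought among 13231 genes, by Pearson's r of normalized log2 values. The nearest to Rb1 were Anp32e, a chaperone of the histone variant H2A.Z (r = 0.998), Akirin2 (r = 0.996), the transcription kinase Cdk9 (r = 0.995) and the lamin B receptor Lbr (r = 0.993). Anp32e read 2445, 2120 and 1444 on Rb-null arrays 1, 2 and 3, and 1390, 1030 and 586 on control arrays 1, 2 and 3. The nearest to Rbl1 were Mcm4, a subunit of the replicative helicase (r = 0.999), BC005537 (r = 0.999), Pnisr (r = 0.998) and Clmn (r = 0.998). Mcm4, on probe set 1436708_x_at, read 1688, 1221 and 339 on Rb-null and 1765, 1290 and 287 on control arrays, the same steep drop on arrays numbered 3. The brighter Mcm4 probe set did not share it to that degree, with 1749, 2085 and 1195 on Rb-null and 1705, 1945 and 739 on control arrays. The nearest to Rbl2 were the pore-forming protein Gsdmd (r = 0.993), the mitochondrial ATPase Atad3a (r = 0.993), Sipa1l2 (r = 0.990) and Ncf1, a subunit of the phagocyte oxidase (r = 0.985). These genes are the extremes of a search over 6 arrays that share replicate numbers, and the r values describe them only.

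Each neighbour was read only on its brightest probe set, and any other probe sets of the gene are not described. The genes beside Rb1 had log2 differences of either sign. Lpar6, a lysophosphatidic acid receptor gene that lies within Rb1, read 75.8, 102 and 61.1 on Rb-null arrays 1, 2 and 3, and 88.1, 103 and 44.1 on control arrays 1, 2 and 3. Its log2 difference was 0.07 (SE 0.29), with pairs of either sign. Rcbtb2, on one side, had -0.20 (SE 0.36) on 1 of its 5 probe sets, with 0.33, 0.29 and -1.22 in pairs 1, 2 and 3, so that only pair 3 was negative. Itm2b, on the other side, had -0.39 (SE 0.35). Itm2b was lower in Rb-null in each pair, by -0.63, -0.11 and -0.44. Beside Rbl1, Samhd1, which breaks down deoxynucleotides, was lower in Rb-null in each pair, by -0.50, -0.38 and -0.40, with a log2 difference of -0.43 (SE 0.31). None of these 4 genes passed limma's test (adjusted p = 1.00 each). Aktip, which overlaps Rbl2, and Gm36243, which lies beside it, had probe sets, which were below the filter.

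The proteins that work with the pocket proteins were read in 7 lists, with each gene represented by its brightest probe set. Of the 74 genes past the filter, 52 had a positive log2 fold change, and the median was 0.25, beside -0.04 over all 13232 genes tested, of which 45.4% were positive. Limma called 0 of the 74 and 0% of all genes tested, with or without the replicate block. Without the block the lowest limma adjusted p was 0.471, for E2f7, which had a limma adjusted p of 0.0866 with it. Without the block 12 of the 74 had an unadjusted p under 0.05, beside 4.06% of all genes. The SEs of list genes below are from the fit without the block. In each of the 3 pairs 41 of the 74 were higher and 8 were lower in Rb-null, beside 18.4% and 24.1% of all genes. The lists were chosen with earlier results of these data known, so these counts describe them and are no independent test. In the same samples, median log2 differences were -0.51 for granulocyte, -0.50 for B cell and -0.41 for macrophage markers, and their part in the list values was not tested either.

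Among the direct partners, the E2F and DP genes, 7 of 10 were positive (median log2 fold change 0.18) and 0 passed the test. The repressor E2f7 had a log2 fold change of 1.12 (SE 0.26), and its close relative E2f8 had 0.76 (SE 0.32). E2f7 read 554, 510 and 326 in Rb-null and 216, 235 and 146 in control samples. Tfdp2, a DP subunit that pairs with E2Fs, stood at the other end with -1.03 (SE 0.31) and read 1490, 1381 and 1178 in Rb-null and 2840, 1938 and 3543 in control samples. E2f1, the activator that Rb1 binds, had 0.26 (SE 0.26). E2f4, the main partner of Rbl1 and Rbl2, had 0.04 (SE 0.38).

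Of the cyclins and kinases that phosphorylate pocket proteins, 5 of 9 were positive and 0 passed, and the median of 0.08 was 0.33 without Rb-null replicate 1, 0.15 without control replicate 3, 0.12 without control replicate 2 and -0.05 without control replicate 1. The S phase pair stood highest: cyclin E2, Ccne2, had a log2 fold change of 1.83 (SE 0.49) and its kinase Cdk2 0.93 (SE 0.27). Cyclin A2, Ccna2, had 0.47 (SE 0.24) and cyclin E1, Ccne1, 0.64 (SE 0.36). The kinases of the D cyclins had negative values, -0.55 (SE 0.37) for Cdk4 and -0.26 (SE 0.48) for Cdk6, both given after their values were seen. Cdk4 was lower in Rb-null in each pair, while Cdk6 changed sign, with -0.95, 0.58 and -0.41 in pairs 1, 2 and 3. Among the inhibitors of these kinases, 5 of 6 past the filter were positive and 0 passed, while Cdkn2a lay below the filter. Their median of 0.32 was 0.047 without Rb-null replicate 1 and 0.20 without control replicate 2. Cdkn2c, the p18 inhibitor of Cdk4 and Cdk6, had 0.71 (SE 0.27) and Cdkn1c 0.45 (SE 0.31). Cdkn1a, the p21 inhibitor, had 0.43 (SE 0.42), and Cdkn1b, the p27 inhibitor, 0.21 (SE 0.28). The Cdkn1a value came from pair 1, with log2 differences of 1.37, 0.0022 and -0.074 in pairs 1, 2 and 3.

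The proteins that act on pocket proteins after they are made, phosphatases, ligases and other binding proteins, had a median log2 fold change of 0.34, with 9 of 13 positive and 0 past the test. That median was 0.17 without control replicate 3, 0.23 without Rb-null replicate 1 and 0.21 without both arrays numbered 3. Skp2, a ubiquitin ligase subunit that binds Rb1 and marks p27 for destruction, read 483, 328 and 502 in Rb-null and 191, 184 and 97.7 in control samples. Its log2 fold change was 1.40 (SE 0.33). Mdm2, a ligase of p53 that also binds Rb1, had 0.97 (SE 0.29), the phosphatase subunit Ppp2r2a 0.57 (SE 0.25), and Psmd10, or gankyrin, 0.52 (SE 0.31).

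The MuvB and DREAM list holds subunits with which Rbl1 and Rbl2 repress cell cycle genes, and also the activators Foxm1 and Mybl2. It had 7 of 8 genes positive, each of the 7 in every pair, with a median of 0.50 and 0 past the test. Rbbp4, a histone-binding subunit, had a log2 fold change of 0.79 (SE 0.30), and Dyrk1a, the kinase that starts DREAM assembly, 0.68 (SE 0.25). Foxm1 and Mybl2, the activators that take over MuvB later in the cycle, had 0.60 (SE 0.30) and 0.52 (SE 0.40). Of the chromatin proteins that pocket proteins recruit, 4 of 10 were positive and 0 passed, and the median of -0.03 ran from -0.15, without control replicate 3, to 0.12, without control replicate 2. Kmt5c, a histone H4 methyltransferase, had -0.58 (SE 0.25) and Smarca4 -0.28 (SE 0.33), against 0.61 (SE 0.32) for Rbbp7 and 0.38 (SE 0.26) for Ezh2.

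The E2F target genes of DNA replication and division had 15 of 18 values above 0 and a median of 0.35, with 0 past the test. That median was 0.10 without control replicate 3 and 0.19 without both arrays numbered 3. Thymidylate synthase, Tyms, had 1.02 (SE 0.26), the replication clamp Pcna 0.55 (SE 0.27), the mitotic kinase Cdk1 0.47 (SE 0.24) and the helicase subunit Mcm6 0.48 (SE 0.26). Pcna read 9957, 10951 and 9318 in Rb-null and 6870, 8747 and 5091 in control samples. Rbl1, an E2F target by background knowledge, had -0.06 (SE 0.54) on its brightest probe set.

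**Figure D4:**
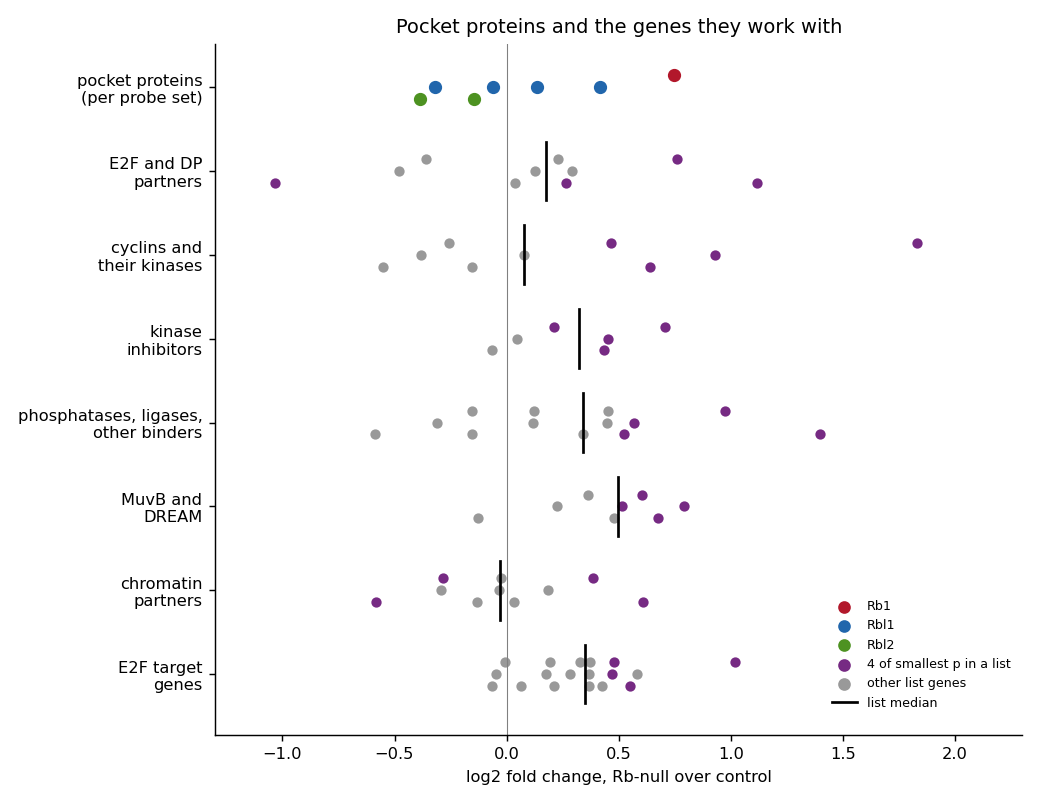
Log2 fold change of Rb-null over control (horizontal axis) for the 7 pocket protein probe sets past the filter (top row) and for each gene of 7 lists (rows below). Black lines are list medians, purple points the 4 genes of smallest p in each list and grey points the others. Medians run from -0.03 for chromatin partners to 0.50 for the MuvB and DREAM list, and Rb1 stands right of all of them at 0.75.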

How the data were processed

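The authors deposited 1 linear intensity for each probe set and array. How they summarised and scaled the scans is not stated in the labels. Per the labels, total RNA was labelled with biotin, and groups and replicate numbers came from the sample titles. Of 45101 probe sets, 64 controls, 4 empty ones and 1 whose reading no 16-bit scanner can give were dropped, leaving 45032. Platform annotation named 34941 with 1 gene, 932 with several and 9159 with none. Values were taken as log2(value + 16) and quantile normalized, and those whose mean passed the 40th percentile (log2 5.12) were tested, 7 of the 8 members among them. Rb-null was compared with control by limma 3.58.1 in R 4.3.3, 2-sided, with Benjamini-Hochberg adjustment over all 27019 probe sets, or over 13232 genes for the lists. The fits without and with the replicate block were run on simulated data, while the fit with trend and robust moderation was not. Exact permutation tests used scipy 1.17.1. The number of arrays limits the precision.

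Arrays of equal replicate number deviated together from their group means (r across probe sets 0.639, 0.621 and 0.667). The number was therefore used in the pair differences, the sign-flip test and the fits with a replicate block. The main limma fit ignored it, so SEs and p-values are unpaired unless the block or the pairs are named. The labels do not say what the numbers stand for. Every probe set of Rb1, Rbl1 and Rbl2 is named, and of each list up to 4 genes with the smallest p. E2f4, Cdk4 and Cdk6 were added outside that rule. For each member, the 4 genes most like it and the neighbours in RefSeq's table (2 on each side and any within or overlapping) were sought. Members and lists were chosen with earlier results of these data known. Alternatives covered normalization, offset, filter, block, weights, left-out arrays and 1 probe set per gene.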

Additional observations from a re-analysis of the deposited data

How the results depend on the processing

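The bright Rb1 probe set was higher in Rb-null under all 18 alternatives, with log2 fold changes from 0.53 to 0.98, both reached by leaving out 1 control array. It passed limma's test under 2 of them, the replicate block with variance trend and robust moderation (0.75) and the same fit without both arrays numbered 3 (0.61). That second fit was chosen after seeing the data and reuses part of the same arrays. Those fits called 938 and 1584 probe sets over the whole table, against 0 otherwise. The plain replicate block left Rb1 at 0.75 and changed no call. Rbl1 1432604_at turned to -0.056 with array weights and to -0.14 without both arrays numbered 3, with or without the block. With 1 array left out, values ran from -0.57 to 0.37 for Rbl1 1424156_at, from -0.28 to 0.84 for Rbl1 1425166_at, from -0.061 to 0.31 for Rbl1 1432604_at, from -0.29 to 0.072 for Rbl2 1418146_a_at, from -0.48 to -0.028 for Rbl1 1454293_at, from -0.79 to -0.068 for Rbl2 1425981_a_at, from 0.47 to 1.10 and from 0.50 to 1.26 for the differences between the changes of Rb1 and those of Rbl1 and Rbl2, and from -0.60 to 0.59 for the difference between the changes of Rbl1 and Rbl2. The causes were not tested. Rbl1 1454293_at was below the filter without control replicate 1. With 1 array left out, list medians ran from -0.05 to 0.33 for cyclins and kinases, from 0.047 to 0.42 for inhibitors, from 0.17 to 0.39 for phosphatases and ligases, and from 0.10 to 0.48 for E2F targets. List medians were above 0 under every alternative for the E2F and DP, inhibitor, phosphatase and ligase, MuvB and DREAM, and E2F target lists. Dim probe sets, 1444400_at of Rb1 above all (-0.19 with an offset of 1), are limited by their signal.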
